A study of Homo sapiens with 12 samples.

Results

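The S100 proteins are a family of small calcium-binding proteins. Their transcripts were followed here in 2 established human pancreatic cancer cell lines, AsPC-1 and PANC-1, which were mock-treated or made to overexpress TAp63 or deltaNp63. The 10 members described are S100A2, S100A3, S100A4, S100A6, S100A8, S100A9, S100A10, S100A11, S100A14 and S100P. They were picked by gene symbol, and the deposited transcript values of each were summed to a gene value, as was done for all 39099 genes. Of the 10 members, 8 reached 1 TPM in at least 2 of the 12 libraries and were among the 14767 genes tested. The exceptions, S100A8 and S100A9, are described by their values alone.

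A typical S100 protein pairs 2 EF-hand calcium-binding loops and forms a dimer. Binding of calcium exposes a surface that grips a partner protein, such as an annexin, so the family acts as a set of calcium-triggered adaptors without enzyme activity. Several members are also released from cells and bind surface receptors, among them AGER, the receptor for advanced glycation end products. Most human S100 genes lie on the long arm of chromosome 1 beside the genes of the skin's cornified envelope, and S100A2, S100A4, S100A6 and S100P have long been studied in pancreatic cancer. TAp63 and deltaNp63 are protein classes made from TP63 through its upstream and its internal promoter. The p63 transcription factor belongs to the p53 family and is a master regulator of squamous epithelium.

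Each of the 6 groups held 2 libraries, which the labels call biological replicates. The groups were AsPC-1 mock, AsPC-1 TAp63, AsPC-1 deltaNp63, PANC-1 mock, PANC-1 TAp63 and PANC-1 deltaNp63. The labels name no vector, selection step or time after transfer, so whether a group is a pool or a clone is not given in the sources used here. The p-values below measure only the spread between these libraries. Values are TPM, the relative abundance of a transcript in its library, which are scaled for transcript length, so that levels of different genes can be set side by side. TPM keeps no read depth, and the depth of a library is therefore unknown. RNA came from whole cultures, so fewer cells expressing a gene and less RNA of it per cell cannot be told apart.

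TP63 was at 0.82 to 1.1 TPM in AsPC-1 mock, 102 to 170 TPM with TAp63 and 245 to 350 TPM with deltaNp63. In PANC-1 it stood at 0.02 to 0.12 TPM in mock, 324 to 342 TPM with TAp63 and 815 to 1187 TPM with deltaNp63. These gene sums show more TP63 RNA in every construct library than in the mock libraries and do not tell the TAp63 from the deltaNp63 class. All 9 epithelial markers of the pancreas reached 1 TPM in some library, and no acinar or endocrine marker and none of the 3 endothelial markers with a value did. CFTR, one of the epithelial markers, did so only in single libraries of AsPC-1 TAp63, AsPC-1 deltaNp63 and PANC-1 deltaNp63. It was at most 1.30 TPM and was listed at 0 in both AsPC-1 mock libraries. Of 10 leukocyte markers, LYZ (102 to 130 TPM in AsPC-1) and ITGAM reached 1 TPM, while PTPRC, which defines leukocytes, stayed at or below 0.01 TPM. Of the 6 fibroblast markers, LUM did so in AsPC-1 and COL1A1 in PANC-1, and of the 6 keratinocyte markers, KRT10 and DSG3. AsPC-1 deltaNp63 replicate 1 stood apart from its partner. The median absolute log2 difference between the replicates was 0.21 in that group and 0.092 to 0.148 in the other 5. The summed epithelial markers were at 7171 TPM in that library and at 9583 to 10597 TPM in the other 5 AsPC-1 libraries. Among the AsPC-1 libraries it was lowest in KRT8, KRT18 and KRT19 and highest in CDH1. The TP63 level of that library, 245 TPM, was the lower of the pair. For S100A2 and S100A6, the members called with deltaNp63 in AsPC-1, values are given with and without this library. Calls of genes on the other lists are given with it only.

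Of the 10 members, 9 lie within 1.63 Mb of chromosome 1, between positions 151982915 and 153616986 of hg38, and S100P lies alone on chromosome 4 at positions 6693878 to 6697170. In GENCODE v44, S100A2 spans chr1:153561108-153567890, S100A6 chr1:153534599-153536244 and S100A4 chr1:153543613-153550136, all on the minus strand. Promoter sequence is shown for the 4 members whose values lay above both mock libraries in all 4 construct libraries of AsPC-1, since these are the members on which the comparison of constructs turns. Each window holds the 250 bases before the RefSeq start site on GRCh38.p14, written 5′ to 3′ on the strand of the gene. Capitals mark the AP-1-type motif TGANTCA or the TATA-box motif TATAAA. The windows are chr1:153565845-153566094 on the minus strand for S100A2, chr1:153545807-153546056 on the minus strand for S100A4, chr1:153535992-153536241 on the minus strand for S100A6 and chr4:6693628-6693877 on the plus strand for S100P.
S100A2: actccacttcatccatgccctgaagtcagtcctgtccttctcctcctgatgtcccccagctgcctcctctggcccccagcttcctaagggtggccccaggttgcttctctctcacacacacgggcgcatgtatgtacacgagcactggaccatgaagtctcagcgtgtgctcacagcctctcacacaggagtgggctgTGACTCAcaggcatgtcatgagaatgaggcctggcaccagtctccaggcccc
S100A4: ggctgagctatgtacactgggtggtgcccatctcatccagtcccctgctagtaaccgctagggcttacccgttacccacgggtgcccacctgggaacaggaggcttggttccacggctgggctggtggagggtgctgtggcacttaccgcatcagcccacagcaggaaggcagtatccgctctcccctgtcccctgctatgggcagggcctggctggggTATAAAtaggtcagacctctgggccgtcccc
S100A6: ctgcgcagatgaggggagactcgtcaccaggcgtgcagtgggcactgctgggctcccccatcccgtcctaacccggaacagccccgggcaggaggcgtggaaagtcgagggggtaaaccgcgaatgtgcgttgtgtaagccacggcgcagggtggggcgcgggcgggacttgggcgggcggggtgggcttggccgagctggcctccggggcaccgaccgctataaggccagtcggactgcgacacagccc
S100P: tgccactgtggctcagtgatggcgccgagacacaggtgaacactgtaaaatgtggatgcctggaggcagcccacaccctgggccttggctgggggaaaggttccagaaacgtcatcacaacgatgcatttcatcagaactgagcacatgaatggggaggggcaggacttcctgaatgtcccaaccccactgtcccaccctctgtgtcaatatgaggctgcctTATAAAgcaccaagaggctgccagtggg

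RefSeq gave 13 start-site windows for the 10 members, and 3 motifs were searched on both strands. TGANTCA was found at position -52 of S100A2, where it reads TGACTCA, and at position -225 of S100A3. TATAAA was found at -31 in S100A4, at -28 in S100P and at -29 in S100A9 and S100A8. The windows of S100A6, S100A10, S100A11 and S100A14 held neither. The p53-family half-site was found in none of the 13 windows. S100A2 has a further window, chr1:153563888-153564137, which is not printed. No window covers the sequence just before the annotated starts of its transcripts S100A2-203 (153566755) and S100A2-204 (153567890), which was not searched. Over all 35116 RefSeq promoter windows of the same length, 6.57% held TGANTCA, 10.7% held TATAAA and 5.57% held the half-site. These matches describe letters in the windows and say nothing about binding.

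The members fell into an abundant and a scarce set. In the 6 AsPC-1 libraries, S100A6 had the highest median at 5367 TPM (4177 to 7182), followed by S100A4 at 4737 TPM (4187 to 6236), S100A11 at 4553 TPM (4112 to 4606) and S100A10 at 2811 TPM (2684 to 3257). The ranges of S100A6, S100A4 and S100A11 overlapped, so their order was not separated beyond the spread of the libraries, while S100A10 lay below all 3. S100P followed with a median of 234 TPM (161 to 280), then S100A14 at 97.6 TPM (77.3 to 140), S100A2 at 66.0 TPM (38.1 to 144) and S100A3 at 20.8 TPM (17.3 to 31.0). S100A14 and S100A2 overlapped in range, and S100P and S100A3 did not overlap their neighbours.

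In the 6 PANC-1 libraries the order changed. S100A6 was again highest at a median of 2965 TPM (2711 to 3280), ahead of S100A11 at 1798 TPM (1682 to 1936), S100A10 at 747 TPM (728 to 850) and S100A4 at 384 TPM (339 to 409). No neighbours among these 4 overlapped. S100A2 was at 39.7 TPM (33.5 to 46.3) and S100A3 at 33.4 TPM (30.3 to 34.8), which overlapped. S100P had a median of 2.74 TPM (1.73 to 4.57) and S100A14 of 0.17 TPM (0.05 to 0.36). Together the 10 members made up 1.59% and 1.63% of all TPM in the AsPC-1 mock libraries and 0.593% to 0.613% in the PANC-1 mock libraries.

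**Figure D1:**
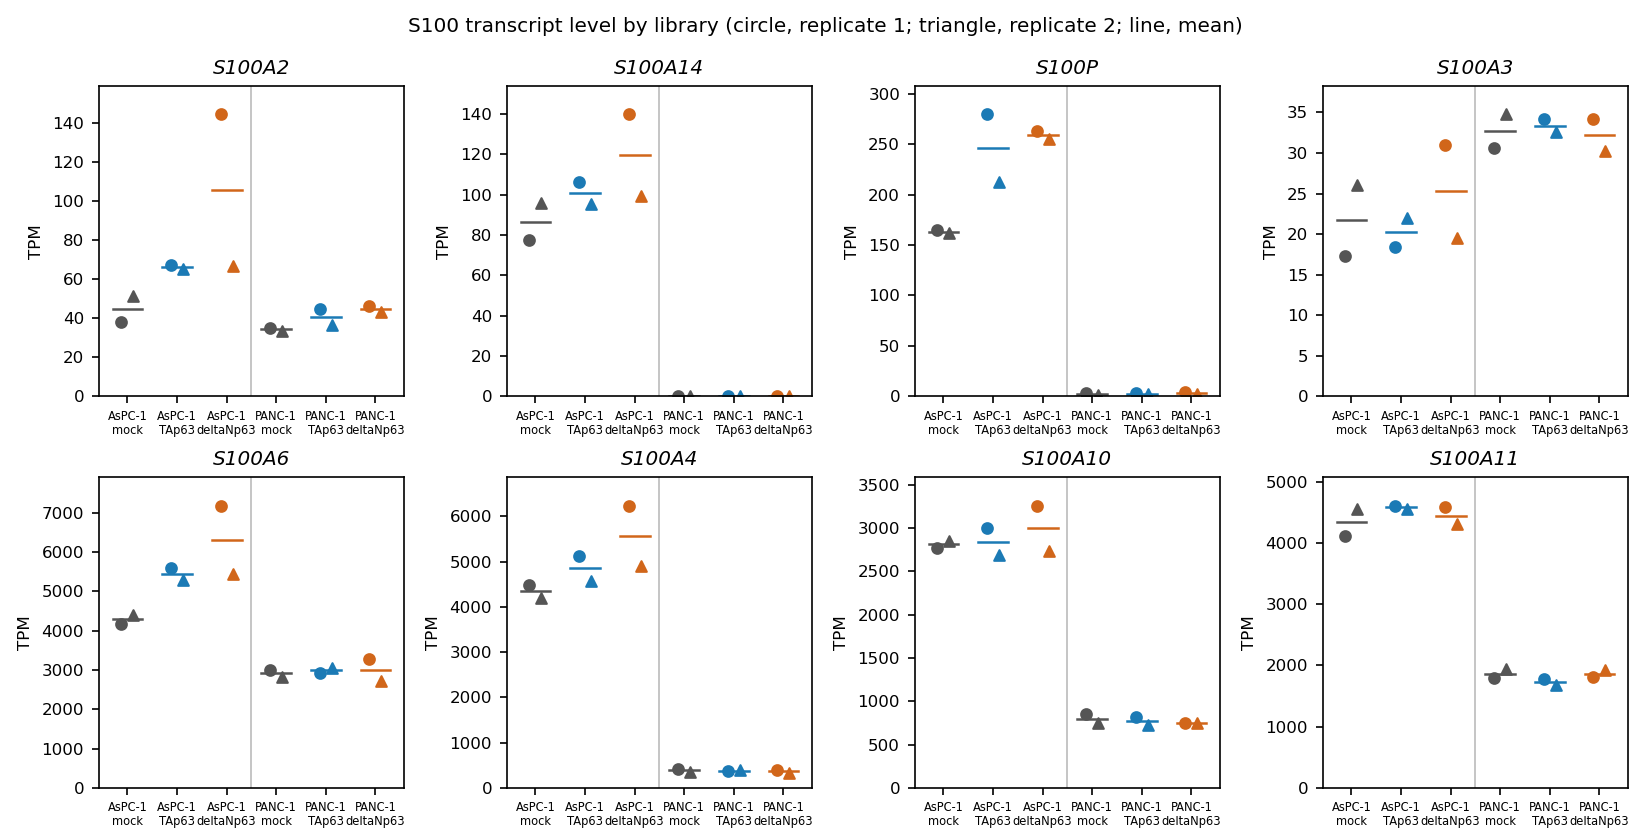
TPM of the 8 tested members, a panel each, with the 6 groups along the horizontal axis (circle, replicate 1; triangle, replicate 2; line, group mean). S100A14 and S100P lay near 0 in the PANC-1 groups, and the circle of AsPC-1 deltaNp63 stood highest of all libraries for S100A2, S100A4, S100A6, S100A10 and S100A14.

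S100A8 and S100A9 form calprotectin, the calcium-binding complex of neutrophils that squamous cells also make under stress. S100A8 was listed at 0 in all 12 libraries. S100A9 was listed at 0 in 8 libraries, and in the other 4 it reached at most 0.21 TPM, in AsPC-1 TAp63 replicate 1. Neither overexpressed class brought this pair to the level of the filter in any library.

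The mock cultures were compared first, to see how the family differs between the cell lines before any construct. Of the 8 members tested, 7 differed between PANC-1 mock and AsPC-1 mock at a limma adjusted p under 0.05, with 6 lower in PANC-1 and 1 higher. S100A14 passed the low-value filter through AsPC-1 alone, so its direction was fixed by the filter. Of the other 7 members, 6 were called, 5 of them lower. In this comparison 72.5% of all tested genes were called, 27.9% lower and 44.6% higher. Without overlap between the mock libraries, 7 members, S100A14 included, were lower in PANC-1, as were 34.7% of tested genes, and S100A3 was higher, as were 52.9%. Fold changes are differences on the log2(TPM + 1) scale, which understates the change of low genes.

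The steepest difference was in S100A14, a member found in epithelial cells. The AsPC-1 mock libraries held 77.3 and 95.8 TPM of it and those of PANC-1 held 0.05 and 0.12 TPM. The log2 difference was -6.32 (SE 0.18), given as a description since S100A14 was tested only because it is high in AsPC-1.

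S100P, a placental S100 protein often made by pancreatic tumours and a ligand of AGER, was at 165 and 161 TPM in AsPC-1 mock and at 3.14 and 1.73 TPM in PANC-1 mock. Its log2 difference was -5.61 (SE 0.26, limma adjusted p = 2.76e-08). Its level in PANC-1 was low but above 1 TPM in every library.

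S100A4, also called metastasin, binds non-muscle myosin and is tied to cell motility. Its mock libraries held 4495 and 4187 TPM in AsPC-1 and 409 and 362 TPM in PANC-1, 11.3-fold lower by the group means, with a log2 difference of -3.49 (SE 0.12, limma adjusted p = 3.25e-09). Its neighbour S100A3, a cysteine-rich member known from the hair cuticle, went the other way. S100A3 was at 17.3 and 26.1 TPM in AsPC-1 mock and at 30.7 and 34.8 TPM in PANC-1 mock, a log2 difference of 0.60 (SE 0.22, limma adjusted p = 0.0335). The S100A3 and S100A4 gene models overlap on the same strand, and how reads shared by them were assigned is not given in the sources used here. The call of S100A3 was lost in 8 of 13 alternative analyses, including those without AsPC-1 mock replicate 1 (adjusted p = 0.265) and without either PANC-1 mock library (adjusted p = 0.0632 and 0.149).

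S100A10 is the annexin A2 partner that has lost calcium binding. It stood at 2769 and 2853 TPM in AsPC-1 mock and 850 and 749 TPM in PANC-1 mock, with a log2 difference of -1.82 (SE 0.10, limma adjusted p = 9.65e-08). S100A11, which binds annexin A1 and serves in membrane repair, was at 4112 and 4557 TPM against 1794 and 1936 TPM, a log2 difference of -1.22 (SE 0.072, limma adjusted p = 1.46e-07). S100A6, or calcyclin, which binds CACYBP, was at 4177 and 4412 TPM against 3007 and 2820 TPM, a log2 difference of -0.56 (SE 0.12, limma adjusted p = 0.00227). All 3 abundant genes were lower in PANC-1, S100A6 by the least.

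S100A2, a largely nuclear member of squamous cells and a known p63 target in keratinocytes, did not pass the test between the mock cultures. Its values were 38.1 and 51.1 TPM in AsPC-1 and at 35.2 and 33.5 TPM in PANC-1, a log2 difference of -0.35 (95% interval -0.99 to 0.28, limma adjusted p = 0.285). Across all 6 libraries of each cell line, 6 members were lower in every PANC-1 library than in every AsPC-1 library, where 25.3% of tested genes were. These were S100A4, S100A6, S100A10, S100A11, S100A14 and S100P. The place of S100A14 among them was fixed by the filter, which it passed through AsPC-1 alone. No member was higher in every PANC-1 library, where 45% of tested genes were.

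**Figure D2:**
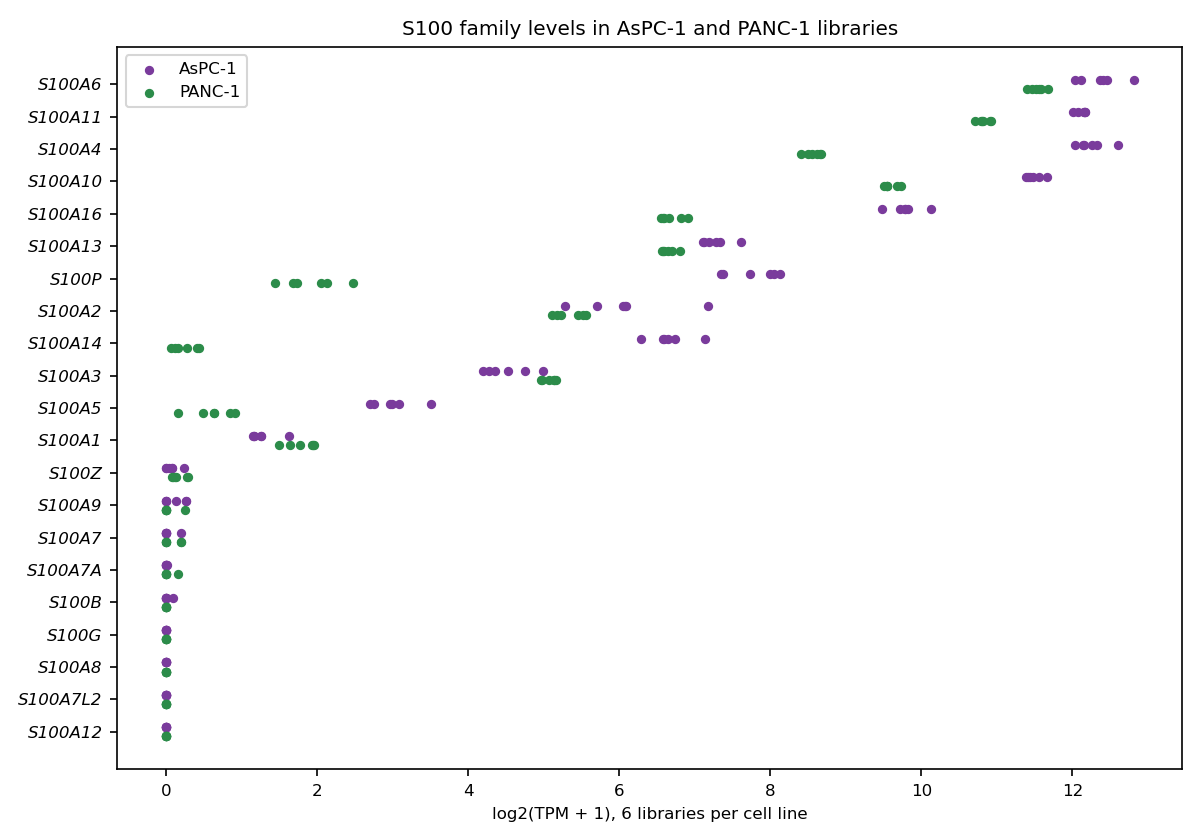
Log2(TPM + 1) of the 10 members and 11 other S100 genes, with a point for each of the 6 libraries of AsPC-1 (upper points) and PANC-1 (lower points), ordered by mean TPM. S100A14, S100P and S100A5 were widely apart between the cell lines, S100A2 overlapped, and S100A8 lay at 0 in all 12 libraries.

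With TAp63 in AsPC-1, S100A2, S100A4, S100A6 and S100P were higher in both libraries than in both mock libraries, but no member passed the test. In all, 0 of 8 members had a limma adjusted p under 0.05, against 0.637% of all tested genes (4 genes higher and 90 lower). At an unadjusted p under 0.05 there was 1 member of 8, S100A6, near the 15.1% of all tested genes at that level. Values above both mock libraries were held by 11.2% of all tested genes and values below both by 35.4%, the latter by no member. Of the 8 log2 differences 7 were above 0, with a median of 0.19, beside -0.08 for all tested genes, of which 32.4% were above 0.

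S100A2 was at 67.2 and 65.2 TPM with TAp63, beside 38.1 and 51.1 TPM in mock. Both TAp63 libraries lay above both mock libraries, and the log2 difference was 0.57 (SE 0.28, 95% interval -0.06 to 1.21, limma adjusted p = 0.382). S100P was at 280 and 213 TPM, beside 165 and 161 TPM, and its log2 difference was 0.58 (SE 0.26, limma adjusted p = 0.341). S100A6 was at 5603 and 5292 TPM, beside 4177 and 4412 TPM, with a log2 difference of 0.34 (SE 0.12, limma adjusted p = 0.239). None of the 3 changes was separated from the spread of all libraries at the threshold. S100A4 was at 5135 and 4569 TPM (log2 difference 0.16, limma adjusted p = 0.593) and S100A14 at 106 and 95.1 TPM (0.22, limma adjusted p = 0.609), the latter overlapping mock. S100A3 (-0.08), S100A10 (0.01) and S100A11 (0.08) lay closest to 0, and these 3 changed sign under another scaling of the libraries.

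With deltaNp63 in AsPC-1, S100A2 and S100A6 rose. These 2 of 8 members had a limma adjusted p under 0.05, both higher, and no member fell. Among all tested genes 7.14% were called, 0.637% higher and 6.51% lower, which is 94 and 961 genes. With each library centred on its median, 249 genes were called higher and 170 lower, and with quantile normalization 51 and 148. By limma, 5 of 8 members (S100A2, S100A4, S100A6, S100A14 and S100P) had an unadjusted p under 0.05, beside 29.7% of all tested genes. These shares include AsPC-1 deltaNp63 replicate 1. All 8 log2 differences were above 0, with a median of 0.40, beside -0.12 for all tested genes, of which 30.8% were above 0. Quantile normalization moved the median of all genes by 0.12 and centring moved it by 0.21 in this comparison.

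S100A2 was at 144 and 66.7 TPM with deltaNp63, beside 38.1 and 51.1 TPM in mock, or 106 ± 54.9 against 44.6 ± 9.18 TPM (mean ± SD, n = 2 each). Both deltaNp63 libraries lay above mock, but replicate 1 was more than double its partner, which sat at the TAp63 level. The log2 difference was 1.13 (SE 0.28, 95% interval 0.50 to 1.77, limma adjusted p = 0.0468). Without AsPC-1 deltaNp63 replicate 1 it was 0.58 (adjusted p = 0.168), and without replicate 2 it was 1.69 (adjusted p = 0.000581). A fit that leaves 1 library in a group takes its spread from the other groups. Leaving out a mock library also ended the call (adjusted p = 0.202 and 0.101).

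S100A6 was at 7182 and 5442 TPM with deltaNp63, beside 4177 and 4412 TPM in mock, or 1.47-fold higher by the group means. Both libraries lay above mock, again with replicate 1 higher. The log2 difference was 0.54 (SE 0.12, 95% interval 0.26 to 0.82, limma adjusted p = 0.0390). Without AsPC-1 deltaNp63 replicate 1 it was 0.34 (adjusted p = 0.181), and without a mock library the adjusted p was 0.167 or 0.108. Over 14 alternatives the adjusted p ran from 0.000581 to 0.372 for S100A2, with 4 under 0.05, and from 0.00202 to 0.371 for S100A6, with 6 under 0.05. Both kept a positive difference in all 14.

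S100P was at 263 and 255 TPM with deltaNp63, beside 165 and 161 TPM in mock. It was the member whose 2 deltaNp63 replicates lay closest together relative to the change, and its log2 difference was 0.66 (SE 0.26, limma adjusted p = 0.131). S100A4 was at 6236 and 4906 TPM (0.35, limma adjusted p = 0.0992) and S100A14 at 140 and 99.5 TPM (0.45, limma adjusted p = 0.132). These 3 also lay above both mock libraries in both replicates. In all, 5 members (S100A2, S100A4, S100A6, S100A14 and S100P) and 11.1% of all tested genes lay above mock without overlap, and no member but 41.1% of all tested genes lay below.

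S100A3 was at 31.0 and 19.5 TPM with deltaNp63 and overlapped mock, with a log2 difference of 0.20 (limma adjusted p = 0.602). S100A10 was at 3257 and 2734 TPM (0.09, limma adjusted p = 0.631) and S100A11 at 4578 and 4313 TPM (0.04, limma adjusted p = 0.790). These 3 overlapped the mock libraries.

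**Figure D3:**
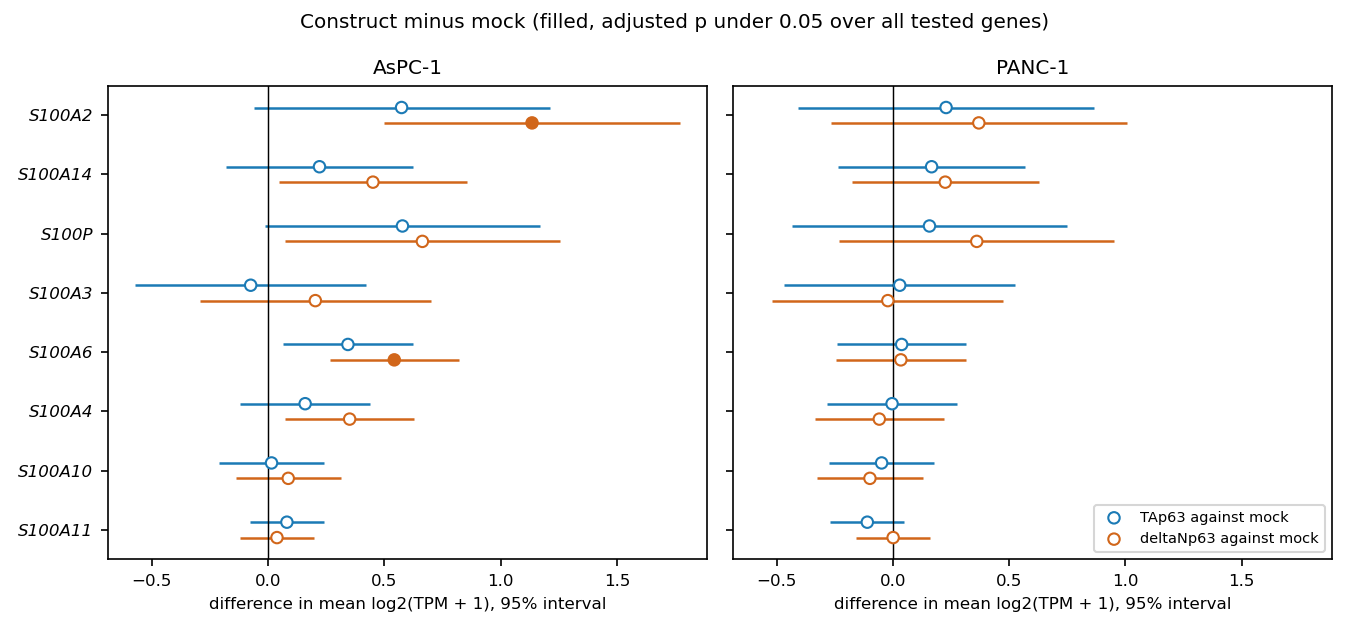
Difference in mean log2(TPM + 1) from mock for each tested member with each construct, AsPC-1 left and PANC-1 right, with 95% intervals from limma (filled point, adjusted p under 0.05). The filled points are S100A2 and S100A6 with deltaNp63 in AsPC-1, and all intervals in PANC-1 crossed 0.

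The replicates of deltaNp63 in AsPC-1 differed across the family. Taken against the mock mean, replicate 1 had a median member difference of 0.61 with 8 of 8 members above 0, and replicate 2 had 0.19 with 5 of 8 above 0. The TAp63 libraries stood at 0.27 and 0.11, each with 7 of 8 above 0. The median of all tested genes lay between -0.14 and -0.07 in these 4 libraries. The members with the widest gap between the deltaNp63 replicates were S100A2 (1.69 and 0.58) and S100A3 (0.52 and -0.12), and the narrowest was in S100P (0.69 and 0.64). The members made up 2.18% of all TPM in deltaNp63 replicate 1, 1.78% in replicate 2, and 1.88% and 1.75% with TAp63. Replicate 1 is also the library with the lower epithelial marker sum, 7171 TPM against 10035 TPM in replicate 2. KRT8 (2034 against 3609 TPM), KRT18 (1682 against 2509 TPM) and KRT19 (1908 against 2441 TPM) were lower in replicate 1, as were KRT7 and MUC1. EPCAM (1384 against 1330 TPM), CDH1 (123 against 104 TPM), SOX9 and CFTR were higher there. The part of the marker difference in the members' values was not tested.

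**Figure D4:**
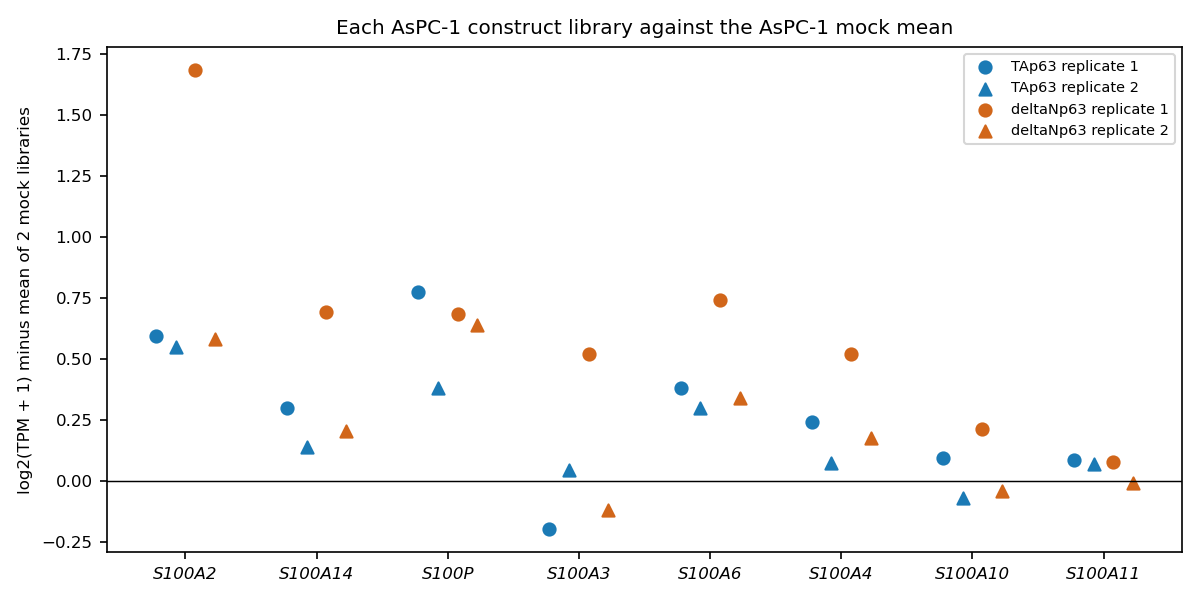
Log2(TPM + 1) of each AsPC-1 construct library minus the mean of the 2 AsPC-1 mock libraries, for the 8 tested members. AsPC-1 deltaNp63 replicate 1 had all 8 members above 0 with a median of 0.61, while replicate 2 had a median of 0.19.

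Members have short transcripts, with mean lengths from 376 nucleotides in S100P to 1043 in S100A14, and length moved with the deltaNp63 difference in AsPC-1. Among genes at a mean of at least 100 TPM, the median log2 difference was 0.13 over 44 genes with transcripts under 500 nucleotides, 0.0069 over 451 genes of 500 to under 1100, and -0.07 over 1088 longer genes. The part of transcript length in the members' differences was not tested.

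S100A2 has 4 annotated transcripts here, all protein-coding, which begin at different points. S100A2-202, which begins at position 153565844 just after the S100A2 window printed above, ran from 16.3 to 59.0 TPM over the 12 libraries, and S100A2-203, which begins at 153566755, from 8.14 to 44.1 TPM. S100A2-204, which begins at 153567890, was at 39.2 TPM in AsPC-1 deltaNp63 replicate 1 and at 5.23 TPM in replicate 2. In the mock libraries of AsPC-1 it was at 0.79 and 5.00 TPM and with TAp63 at 8.69 and 7.96 TPM, so a single library held the high value. S100A2-205 did not exceed 1.98 TPM. Without S100A2-204, the gene was at 105 and 61.5 TPM with deltaNp63, 58.6 and 57.3 TPM with TAp63 and 37.4 and 46.1 TPM in mock, and all 4 AsPC-1 construct libraries still lay above both AsPC-1 mock libraries. In PANC-1 they did not: without S100A2-204 the gene was at 26.7 and 33.5 TPM in mock, 44.9 and 27.2 TPM with TAp63 and 28.6 and 32.3 TPM with deltaNp63, so 3 of the 4 construct libraries fell below a mock library.

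**Figure D5:**
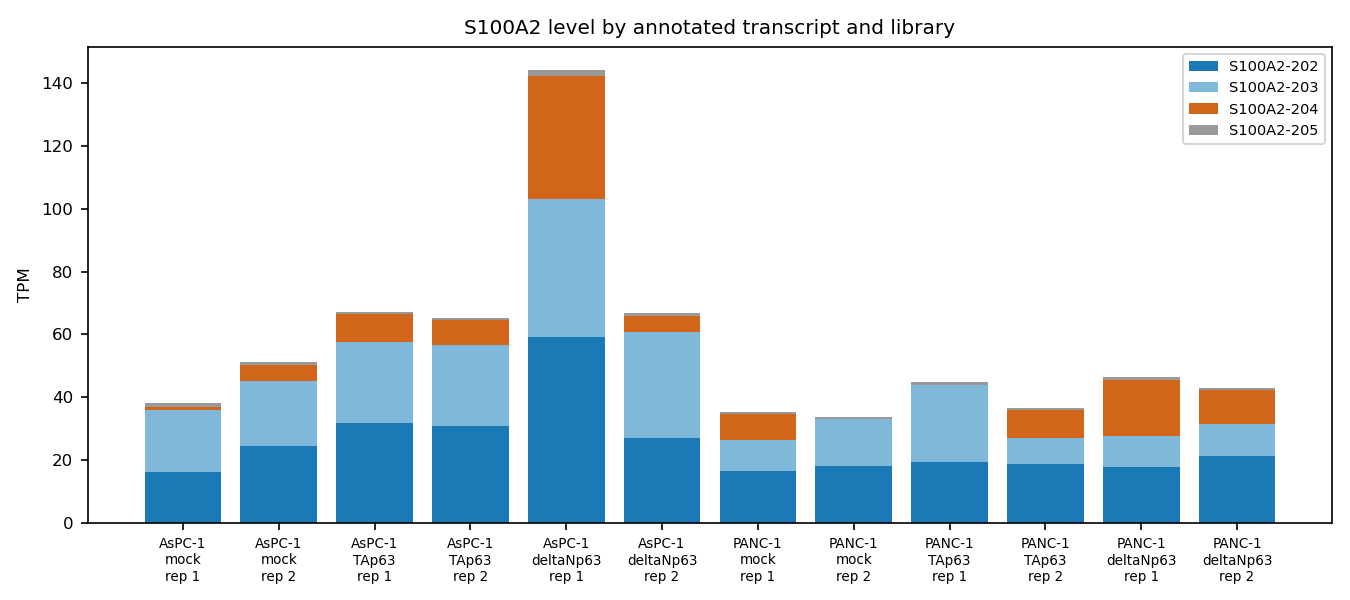
TPM of each S100A2 transcript in the 12 libraries, stacked to the gene's value. The stack of AsPC-1 deltaNp63 replicate 1 reached 144 TPM, of which S100A2-204 held 39.2 TPM.

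S100P has 2 transcripts. The protein-coding S100P-201 was at 64.5 and 69.2 TPM in AsPC-1 mock, 108 and 93.0 TPM with TAp63 and 106 and 95.9 TPM with deltaNp63. S100P-202, for which no coding sequence is defined, held the larger share of the gene in all 6 AsPC-1 libraries. Both construct groups lay above mock for the coding transcript as well. With protein-coding transcripts alone, S100P rose with deltaNp63 in AsPC-1 by a log2 difference of 0.59 (limma adjusted p = 0.0271), a call that the gene sum did not make. That fit tested 12050 genes, and neither the share of them called nor the number of members called is given here. S100P had a limma adjusted p under 0.05 in 2 of 14 alternatives.

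TAp63 and deltaNp63 were then compared directly in AsPC-1. No member was called (0 of 8 by limma), against 0.0203% of all tested genes, and none had an unadjusted p under 0.05, against 7.92% of all tested genes. No member separated the classes, since the 2 libraries of each overlapped for all 8, whereas TAp63 lay wholly above deltaNp63 in 19.6% of tested genes and wholly below in 9.87%. S100A2 differed most, by -0.56 for TAp63 minus deltaNp63 (95% interval -1.20 to 0.08, limma adjusted p = 0.643). Without AsPC-1 deltaNp63 replicate 2 it was -1.11, and without replicate 1 it was -0.01. Both constructs share the mock libraries, and side by side the differences from mock were 0.57 and 1.13 for S100A2, 0.34 and 0.54 for S100A6, and 0.58 and 0.66 for S100P. All 4 construct libraries lay above both mock libraries in S100A2, S100A4, S100A6 and S100P, as in 5.28% of all tested genes, and no member lay below in all 4, as 27.3% did.

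In PANC-1, no member was called with TAp63 or deltaNp63, although TP63 stood higher there than in AsPC-1. By limma 0 of 8 members passed with each construct, against 0.00677% of all tested genes with TAp63 and 0.0406% with deltaNp63 (0.0271% higher and 0.0135% lower). At an unadjusted p under 0.05 there were 0 members, against 3.41% and 2.34% of all tested genes. The members' median log2 difference was 0.03 with TAp63 and 0.02 with deltaNp63, beside 0 and -0.02 for all tested genes.

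S100A2 was at 44.9 and 36.4 TPM with TAp63 and at 46.3 and 43.0 TPM with deltaNp63, beside 35.2 and 33.5 TPM in PANC-1 mock. Its 4 construct libraries all lay above both mock libraries, as did 5.61% of all tested genes, while no member lay below in all 4, as 7.73% did. That separation was not kept when S100A2-204 was left out, and 3 of the 4 construct libraries then fell below a mock library. S100A2-204 varied within replicate pairs, at 8.48 and 2.08e-05 TPM in mock, 9.25e-09 and 9.18 TPM with TAp63, and 17.8 and 10.7 TPM with deltaNp63. How reads were divided among the transcripts of the gene is not given in the sources used here. With TAp63 alone 22% of tested genes lay above mock without overlap. The log2 differences were 0.23 (95% interval -0.41 to 0.87) with TAp63 and 0.37 (95% interval -0.27 to 1.01) with deltaNp63, both at a limma adjusted p of 1. S100P was at 3.37 and 2.21 TPM with TAp63 and at 4.57 and 2.35 TPM with deltaNp63, beside 3.14 and 1.73 TPM, and the groups overlapped. S100A14 stayed at or below 0.36 TPM in every PANC-1 library. Its values with deltaNp63, 0.33 and 0.21 TPM, lay above the mock values of 0.05 and 0.12 TPM, a separation on the higher side seen in 10.8% of all tested genes. In its protein-coding transcripts alone the separation was lost, with 0 and 0.21 TPM with deltaNp63 and 0.05 and 0 TPM in mock.

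The abundant members were flat in PANC-1. S100A6 ran from 2711 to 3280 TPM, S100A11 from 1682 to 1936 TPM, S100A10 from 728 to 850 TPM and S100A4 from 339 to 409 TPM, each range over all 6 libraries. S100A11 lay below both mock libraries with TAp63 (1773 and 1682 TPM, beside 1794 and 1936), as did 20.4% of all tested genes. S100A10 did so with deltaNp63 (745 in both libraries, beside 850 and 749), as did 16.3%. The direct comparison of TAp63 with deltaNp63 in PANC-1 called 0 of 8 members by limma, against 0.0271% of all tested genes, 0.0135% in each direction. At an unadjusted p under 0.05 there were 0 members, against 2.96% of all tested genes. S100A11 was lower with TAp63 without overlap, as were 13.8% of tested genes, and no member was higher, as were 20.2%.

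Whether the response differed between AsPC-1 and PANC-1 was tested as an interaction. For the deltaNp63 effect 0 of 8 members were called by limma, against 0.582% of all tested genes (0.562% higher in PANC-1 and 0.0203% lower). At an unadjusted p under 0.05 there were 2 of 8 members (S100A4 and S100A6) and 16.5% of all tested genes. S100A2 differed by -0.77 for PANC-1 minus AsPC-1 (95% interval -1.67 to 0.14, limma adjusted p = 0.363), S100A6 by -0.51 (limma adjusted p = 0.237) and S100A4 by -0.41 (limma adjusted p = 0.291). Without AsPC-1 deltaNp63 replicate 2 these 3 differed by -1.32, -0.71 and -0.58, and without replicate 1 by -0.21, -0.31 and -0.24. In such a fit the lone remaining library is assumed to vary like the other groups. So a difference in response between the lines was not established for any member with all libraries. For the TAp63 effect 0 of 8 were called by limma, against 0.0745% of all tested genes, and 0 had an unadjusted p under 0.05, against 10.4% of all tested genes, with S100A2 at -0.34 (limma adjusted p = 0.769) and S100A6 at -0.31 (limma adjusted p = 0.551).

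Of the other 11 S100 genes, S100A1, S100A5, S100A13 and S100A16 were tested, and S100A7, S100A7A, S100A7L2, S100A12, S100B, S100G and S100Z were not. None of the 4 was called with a construct in either cell line. S100A16, a widely expressed member, was at 712 to 845 TPM in AsPC-1 mock, 882 to 906 TPM with TAp63 and 884 to 1122 TPM with deltaNp63. S100A13, which helps export growth factors that lack a signal peptide, was at 138 to 139, 145 to 160 and 155 to 195 TPM in the same order. The 4 genes had a median log2 difference of 0.34 with deltaNp63 in AsPC-1, all above 0. Between the mock cultures S100A16 (-2.85) and S100A13 (-0.42) were lower in PANC-1 by limma (adjusted p = 3.13e-08 and 0.00888), and S100A1 did not pass (0.43, adjusted p = 0.0514). S100A5 was at 5.51 to 10.4 TPM in AsPC-1 and at most 0.89 TPM in PANC-1, and it passed the filter through AsPC-1 alone, so no test is given for it.

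The neighbours of the family in the skin gene complex were near 0. Values were at hand for 6 S100-fused genes, such as FLG and HRNR, and for 18 cornified envelope genes, and none of these reached the filter. TCHH and LCE1C, also on these lists, had no value and were not analysed here. FLG, the filaggrin gene, was highest at 0.67 TPM in a PANC-1 mock library, and SPRR1B was the highest envelope gene at 0.93 TPM.

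Among 10 receptor genes of S100 proteins, 8 were tested. AGER, the receptor for S100P and other members, had group means between 0.83 and 1.54 TPM and was called with neither construct. With deltaNp63 in AsPC-1, 1 of the 8 was called and it was lower, against 6.51% of all tested genes. This was CD68, a lysosomal scavenger receptor on that list, with means of 120 TPM in mock and 91.4 TPM with deltaNp63 (log2 difference -0.39, limma adjusted p = 0.0362).

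Among 24 genes for intracellular partners, all were tested, and with deltaNp63 in AsPC-1 none rose and 4 fell, against 0.637% of all tested genes higher and 6.51% lower. The lower calls over all genes drop from 961 to 170 with each library centred on its median. ANXA2, the annexin that binds S100A10, had means of 2316 TPM in mock and 2697 TPM with deltaNp63 (0.22, limma adjusted p = 0.0641), and AHNAK, the scaffold of that complex, of 67.2 and 77.0 TPM (0.17, limma adjusted p = 0.617). The 4 called genes were FKBP4, a chaperone partner (-0.59, limma adjusted p = 0.0425), HSP90AA1, a heat-shock chaperone (-0.43, 0.0337), NCL, the nucleolar protein nucleolin (-0.51, 0.0391), and CACYBP, the calcyclin-binding protein (-0.48, 0.0481). CACYBP, named for its binding of S100A6, had means of 131 TPM in mock and 94.8 TPM with deltaNp63, the opposite direction to S100A6. Its deltaNp63 libraries held 80.7 TPM in replicate 1 and 109 TPM in replicate 2. Replicate 1 was the lower of the deltaNp63 pair in all 4 called genes, and no fit without that library is given for them.

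Of 14 calcium-sensing proteins without the S100 fold, 10 were tested and 1 was called with deltaNp63 in AsPC-1, lower, as were 6.51% of all tested genes. CALR, the calcium-binding chaperone of the endoplasmic reticulum, was lower, with means of 504 TPM in mock and 349 TPM with deltaNp63 (-0.55, limma adjusted p = 0.0366). Its deltaNp63 libraries held 296 TPM in replicate 1 and 401 TPM in replicate 2, and no fit without replicate 1 is given. No gene of these receptor, partner and calcium-sensor lists was called with TAp63 in AsPC-1 or with either construct in PANC-1.

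The genes whose pattern was most like that of S100A2 were ranked by Pearson correlation of log2(TPM + 1) over the 12 libraries, after the mean of each cell line was removed. Among 10220 genes at a mean of at least 5 TPM, the closest were SAT1 (r = 0.952), CFLAR (0.950), LINC01589 (0.950), KPNA4 (0.949) and UPP1 (0.945). S100A14 ranked 6 with r = 0.944 and S100A6 ranked 28 with r = 0.903. The other tested members ranked lower: S100A4 323 (0.754), S100A3 632 (0.664), S100P 782 (0.623), S100A10 1128 (0.537) and S100A11 1868 (0.354). The points share libraries, and the largest deviation is AsPC-1 deltaNp63 replicate 1. Without that library r was 0.836 for SAT1, 0.836 for CFLAR, 0.829 for LINC01589, 0.892 for KPNA4 and 0.862 for UPP1. Among the members it was then 0.888 for S100A14, 0.767 for S100A6, 0.75 for S100P, 0.34 for S100A11, 0.33 for S100A4, 0.14 for S100A3 and 0.018 for S100A10.

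S100A6 and S100A11 each overlap a gene on the opposite strand, and 7 pseudogenes of S100A11 were listed at 0, so reads could have been shared in ways the values do not show. The library kit keeps strand, but whether the quantification used it is not given in the sources used here.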

How the data were processed

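RNA was measured in 12 cultures by sequencing of libraries made with a stranded mRNA kit, per the labels' protocols. The authors deposited TPM values for 153329 Ensembl transcripts, and their quantifier, genome build and annotation are not given in the sources used here. Transcripts were summed to genes through GENCODE v44 (hg38), which matched 139819 transcripts (91.2%), with 89.6% to 90.5% of the TPM of a library. The other 13510 were left out. The 14767 genes that reached 1 TPM in 2 or more libraries were analysed as log2(TPM + 1) with limma 3.58.1 in R 4.3.3, with a trend, a mean for each of 6 groups over all 12 libraries and no replicate block, and 6 residual degrees of freedom. P-values were two-sided and adjusted by Benjamini-Hochberg over all tested genes within a comparison, with a threshold of 0.05. The fit was tested on simulated data. The design foresaw a count test for counts, and the TPM table called for limma. Sequences came from RefSeq (GRCh38.p14). The alternatives were another pseudocount, other filters and scalings, smaller models, a replicate block, coding transcripts alone and leaving out each library. Leaving out a library leaves 1 in its group, and that library is then assumed to vary like the other groups.

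The members and gene lists were chosen with earlier results of these data known. All members were named in each comparison. Other S100 genes were named if tested. From the other lists up to 6 called genes were named, or else the 2 most abundant, with ANXA2, AHNAK, AGER and TP63 in any case. The 5 genes most like S100A2 in pattern were named too.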

Additional observations from a re-analysis of the deposited data

How the results depend on the processing

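The 2 members called with deltaNp63 in AsPC-1 became 1 with a pseudocount of 0.1, 1 with median centring, 1 with a log2 difference of at least 1 also required, and 0 with no low-value filter, with limma without trend, with quantile normalization, with only the compared groups in the model or with only that cell line in the model. The replicate block gave 4 (S100A2, S100A4, S100A6 and S100P, adjusted p = 0.0495, 0.0469, 0.0351 and 0.0259). The replicate numbers were not treated as pairs, since the correlation of same-numbered deviations lay between -0.094 and 0.29 over the 6 pairs of groups. The block left the other comparisons of constructs at 0 members, and the mock comparison at 6 with S100A3 no longer called. Leaving out 1 library gave 0 to 4 members for deltaNp63 in AsPC-1, 0 to 1 for TAp63 against deltaNp63 there, and 0 to 3 for the cell-line difference in the deltaNp63 effect. The higher counts came without AsPC-1 deltaNp63 replicate 2. Counts over all tested genes also varied widely among the fits that left out a library in these comparisons. The member counts of all alternatives in this paragraph stand without the share of all tested genes. For deltaNp63 in AsPC-1, the calls over all genes fell as low as 0 in an alternative. The member counts therefore do not show that members responded more or less than other genes. The cause of the changes in count was not tested.

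The sign of small differences was not stable. With TAp63 in AsPC-1, quantile normalization gave 0.0412 for S100A3, -0.0413 for S100A10 and -0.13 for S100A11, and median centring gave 0.0559 for S100A3. With deltaNp63, quantile normalization gave -0.20 for S100A11. Leaving out 1 library moved S100A3 from -0.36 to 0.21 and S100A10 from -0.0669 to 0.0957 with TAp63. With deltaNp63 it moved S100A3 from -0.12 to 0.52, S100A10 from -0.0401 to 0.21 and S100A11 from -0.0363 to 0.11. S100P in PANC-1 moved from -0.14 to 0.46 with TAp63 and from -0.0063 to 0.73 with deltaNp63. Over all genes, the 1055 called with deltaNp63 in AsPC-1 ranged from 0 to 4057 over 15 alternatives, the 94 called with TAp63 there from 0 to 115, and the 10711 that differed between the mock cultures from 5644 to 11852 over 14. Depth is unknown from TPM, so the counting error of low values, such as those of S100A9 and of S100A14 in PANC-1, cannot be estimated.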
